A study of Homo sapiens with 15 samples.

Results

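Androgens and glucocorticoids are steroid hormones that act through related nuclear receptors. The receptors move to the nucleus once a ligand is bound, and both can bind paired copies of a like DNA half-site, so the same gene can be a target of either. In breast cells androgen signalling is known for secretory and apocrine genes, and glucocorticoid signalling for clock, stress and metabolic genes.

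The comparison described here sets 3 arrays of cells given DHT against 3 arrays of cells given DEX, 6 of the 15 arrays of the series, and its members were taken from the sample titles. The cells were ZR-75-1, an established human breast cancer cell line that carries the estrogen receptor and grew in medium with serum. DHT, usually read as dihydrotestosterone, is a potent androgen. DEX, usually read as dexamethasone, is a synthetic glucocorticoid; it carries a side chain, a fluorine and an added methyl group that dihydrotestosterone lacks. Each was given at 10 nM for 6 h. The other groups, of 3 arrays each, were the progestins MPA and PROG at the same dose and time, and the vehicle, 0.1% ethanol, which some labels also call untreated. Whether the 3 arrays of a group stem from different cultures is not stated in the labels, and the p-values therefore cover the spread among arrays only, possibly a technical one.

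Levels are the deposited log2 values, and a difference of 1 on this scale is a change of 2-fold. Differences are DHT minus DEX and carry the standard error (±) that limma gives for 3 arrays a group. A probe set was called at a limma adjusted p under 0.05 over the 14841 probe sets with 1 gene symbol. A level under 3.70, the median of all deposited values, is described as dim, and differences there can be understated. The cells had bright luminal keratin and epithelial genes, with *KRT18* at 12.10 with DHT and 12.14 with DEX, *EPCAM* at 10.60 with either and *GATA3* at 10.12 with DHT and 10.20 with DEX, while the basal keratin genes *KRT5* and *KRT14* were dim in every group. Dim in every group were 1 of the 13 luminal, 3 of the 6 basal, 2 of the 4 fibroblast and 3 of the 5 blood and endothelial markers. The others reached group means of up to 7.76 among basal, 6.85 among fibroblast and 7.81 among blood and endothelial markers. None of the 13 luminal, 6 basal, 4 fibroblast or 5 blood and endothelial markers measured was called between DHT and DEX by limma. At an unadjusted p under 0.05 there were 1, 0, 0 and 1 of them, all lower. The genes of the glucocorticoid receptor, *NR3C1*, and of the glucocorticoid-induced protein GILZ, *TSC22D3*, were not analysed here.

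Of the 6 arrays, DHT 3 stood apart. On the first principal component of the 6 arrays, with 33% of the variance, DHT 1 and DHT 2 lay at -11.4 and -11.8, DHT 3 at 0.32, and the DEX arrays at 6.59 to 9.07. DHT 3 was also the extreme array of the second component, at 12.8. Correlations across probe sets were 0.9973 to 0.9978 within DHT, 0.9976 to 0.9977 within DEX and 0.9971 to 0.9975 between them. The main counts are therefore given with and without DHT 3.

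DHT and DEX left most genes at like levels and separated a small set. Between them 97 named probe sets of 97 genes were called, 0.654% of those tested. Of these, 38 (0.256%) were higher with DHT, led by the androgen-regulated *C1orf116* and the claudin gene *CLDN8*, and 59 (0.398%) were lower with DHT, led by the clock gene *PER1* and the growth factor gene *EPGN*. At least 1.5-fold apart were 15 of the 97 (0.101%), 8 higher (0.0539%) and 7 lower (0.0472%). In all 97 the 3 DHT arrays lay on one side of the 3 DEX arrays, while over all named probe sets this was so for 5.17% in the higher direction and 7.65% in the lower. Protein-coding genes made up 92 of the called genes, long non-coding RNA genes 4 and microRNA genes 1. Without DHT 3, 135 probe sets were called, 67 higher and 68 lower, 35 of them at least 1.5-fold apart, and 82 of the 97 were among them.

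The size of the differences was small for most of the called genes, with a median of 0.393 in absolute value and a smallest called difference of 0.207. For 14627 of the named probe sets (98.6%) the 95% interval of DHT minus DEX lay within 1.5-fold either way. Among the 9830 with a group mean above the table median this held for 9631 (98%). The typical standard error of a difference was 0.0656, the median over the named probe sets. The median difference over all named probe sets was -0.01.

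**Figure D1:**
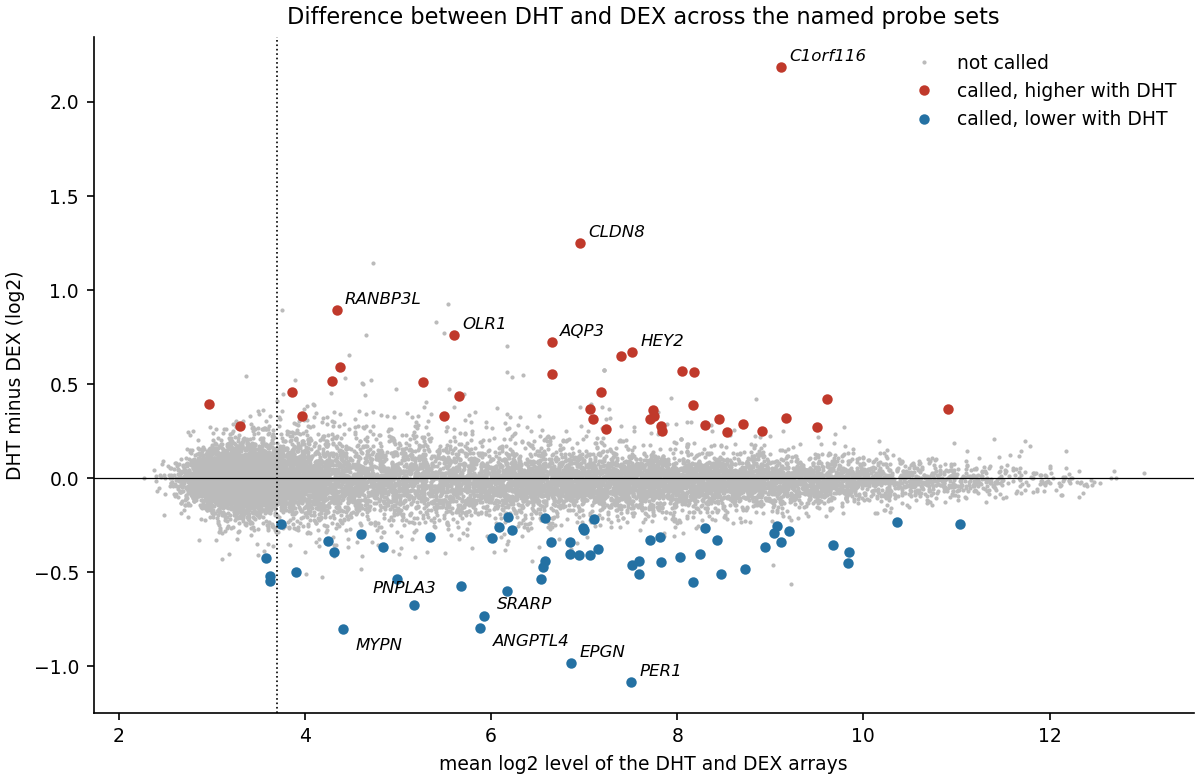
Difference between DHT and DEX (vertical axis, log2, DHT minus DEX) against the mean log2 level of the 6 arrays (horizontal axis) for the 14841 named probe sets. Red points are the 38 called higher with DHT, blue points the 59 called lower, grey points were not called, and the dotted line marks the median of all values, 3.70; *C1orf116* stands alone at 2.18.

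*C1orf116*, also known as the specifically androgen-regulated gene, had the largest difference. Its levels were 10.20, 10.27 and 10.14 in the DHT arrays, 8.02, 7.97 and 8.07 in the DEX arrays, and 6.74, 6.71 and 6.72 in the vehicle arrays. The 3 groups did not overlap, with DEX between DHT and vehicle. The gene was 4.54-fold higher with DHT than with DEX (2.18 ± 0.056, 95% interval 2.06 to 2.30, limma adjusted p = 2.23e-11). It rose with either compound against vehicle, by 3.48 ± 0.056 with DHT (adjusted p = 3.70e-14) and by 1.30 ± 0.056 with DEX (adjusted p = 2.67e-08); both comparisons share the vehicle arrays.

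*CLDN8* encodes a claudin of tight junctions that seals the space between epithelial cells. Its levels were 7.63, 7.67 and 7.44 in the DHT arrays, 6.29, 6.23 and 6.47 in the DEX arrays, and 5.60, 5.68 and 5.38 in the vehicle arrays. Again each DHT array lay above each DEX array, and each DEX array above each vehicle array. The gene was 2.38-fold higher with DHT (1.25 ± 0.085, adjusted p = 6.20e-06).

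Several genes of smaller difference had the same order of groups. *RANBP3L*, a member of the Ran-binding protein family, had levels of 4.74, 4.94 and 4.68 with DHT, 3.94, 3.90 and 3.84 with DEX, and 3.47, 3.53 and 3.59 with vehicle (0.89 ± 0.097, 1.86-fold, adjusted p = 3.17e-04). *AQP3*, a channel for water and glycerol, had levels of 6.95, 6.85 and 7.24 with DHT, 6.12, 6.32 and 6.43 with DEX, and 6.04, 5.67 and 6.01 with vehicle (0.72 ± 0.11, 1.65-fold, adjusted p = 0.00465). *EAF2*, a partner of an elongation factor of RNA polymerase II, had levels of 8.42, 8.27 and 8.31 with DHT, 7.82, 7.84 and 7.63 with DEX, and 7.45, 7.38 and 7.31 with vehicle (0.57 ± 0.062, adjusted p = 3.17e-04). In each of the 3 genes the DEX arrays lay between the others, yet only *EAF2* among them was called with DEX against vehicle (0.38 ± 0.062, adjusted p = 0.00605). The DEX values against vehicle were 0.36 ± 0.097 for *RANBP3L* (adjusted p = 0.121) and 0.38 ± 0.11 for *AQP3* (adjusted p = 0.162). *PWWP3B*, named for its PWWP domain, and *ANKRD22*, an ankyrin repeat gene, were called higher with DHT than with DEX by 0.51 ± 0.070 and 0.46 ± 0.060, and both were also called higher with DEX than with vehicle.

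Other genes higher with DHT stood with DEX near the vehicle level. *OLR1*, the receptor for oxidised low-density lipoprotein, had levels of 5.99, 5.92 and 6.02 with DHT, 5.35, 5.19 and 5.11 with DEX, and 5.25, 5.33 and 5.22 with vehicle. The DHT arrays lay above all others and the DEX and vehicle arrays overlapped; DHT was 1.69-fold above DEX (0.76 ± 0.078, adjusted p = 2.92e-04), and DEX minus vehicle was -0.050 (95% interval -0.22 to 0.12). *CROT*, a peroxisomal enzyme that joins medium-chain acyl groups to carnitine, had levels of 8.41, 8.51 and 8.48 with DHT, 7.95, 7.90 and 7.85 with DEX, and 8.01, 7.81 and 7.79 with vehicle (0.57 ± 0.059, adjusted p = 2.92e-04). *PRAG1*, a pseudokinase, had levels of 7.01, 6.92 and 6.86 with DHT, 6.35, 6.34 and 6.43 with DEX, and 6.40, 6.23 and 6.36 with vehicle (0.56 ± 0.065, adjusted p = 5.15e-04). As in *OLR1*, the DEX and vehicle arrays of these genes overlapped.

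*HEY2*, a transcriptional repressor induced by Notch, *PALMD* (palmdelphin) and the tryptase gene *TPSD1* had DHT arrays above and DEX arrays below every vehicle array. *HEY2* had levels of 7.78, 7.90 and 7.86 with DHT, 7.07, 7.19 and 7.27 with DEX, and 7.54, 7.64 and 7.51 with vehicle. DHT was 1.59-fold above DEX (0.67 ± 0.089, adjusted p = 0.00142), while neither compound was called against vehicle (0.28 ± 0.089, adjusted p = 0.230 with DHT; -0.39 ± 0.089, adjusted p = 0.0564 with DEX). *PALMD* had levels of 7.65, 7.88 and 7.62 with DHT, 7.02, 7.09 and 7.09 with DEX, and 7.19, 7.26 and 7.22 with vehicle (0.65 ± 0.068, adjusted p = 2.92e-04). *TPSD1* was 0.59 ± 0.091 higher with DHT than with DEX (adjusted p = 0.00479), at mean levels of 4.68 with DHT and 4.08 with DEX.

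The largest differences also included *GALNT2*, an enzyme that starts O-linked glycosylation, and the antisense RNA gene *NFYC-AS1*. *GALNT2* was called at 0.52 ± 0.075 (adjusted p = 0.00337) by a probe set of levels 4.55 with DHT and 4.04 with DEX, but its brighter probe set, at 8.95 with DHT and 9.06 with DEX, was not called (-0.12 ± 0.065, adjusted p = 0.608). *NFYC-AS1* averaged 4.09 with DHT, 3.63 with DEX, which is dim, and 3.76 with vehicle. It was called at a difference of 0.46 ± 0.090 (adjusted p = 0.0326). That call ended without any 1 of DHT 1, DHT 3, DEX 2 and DEX 3, with adjusted p up to 0.157 over the alternatives. The called probe set of *ESS2* was dim, at 3.17 with DHT and 2.78 with DEX. Its brighter probe set, at 7.58 with DHT and 7.68 with DEX, was not called (-0.10 ± 0.057, adjusted p = 0.629). The call of *ESS2* ended without either of DHT 1 and DEX 1. In *RHOBTB2* the called probe set was the brighter, at 7.54 with DHT and 7.87 with DEX. The other, at 4.65 with DHT and 4.60 with DEX, was not called.

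**Figure D2:**
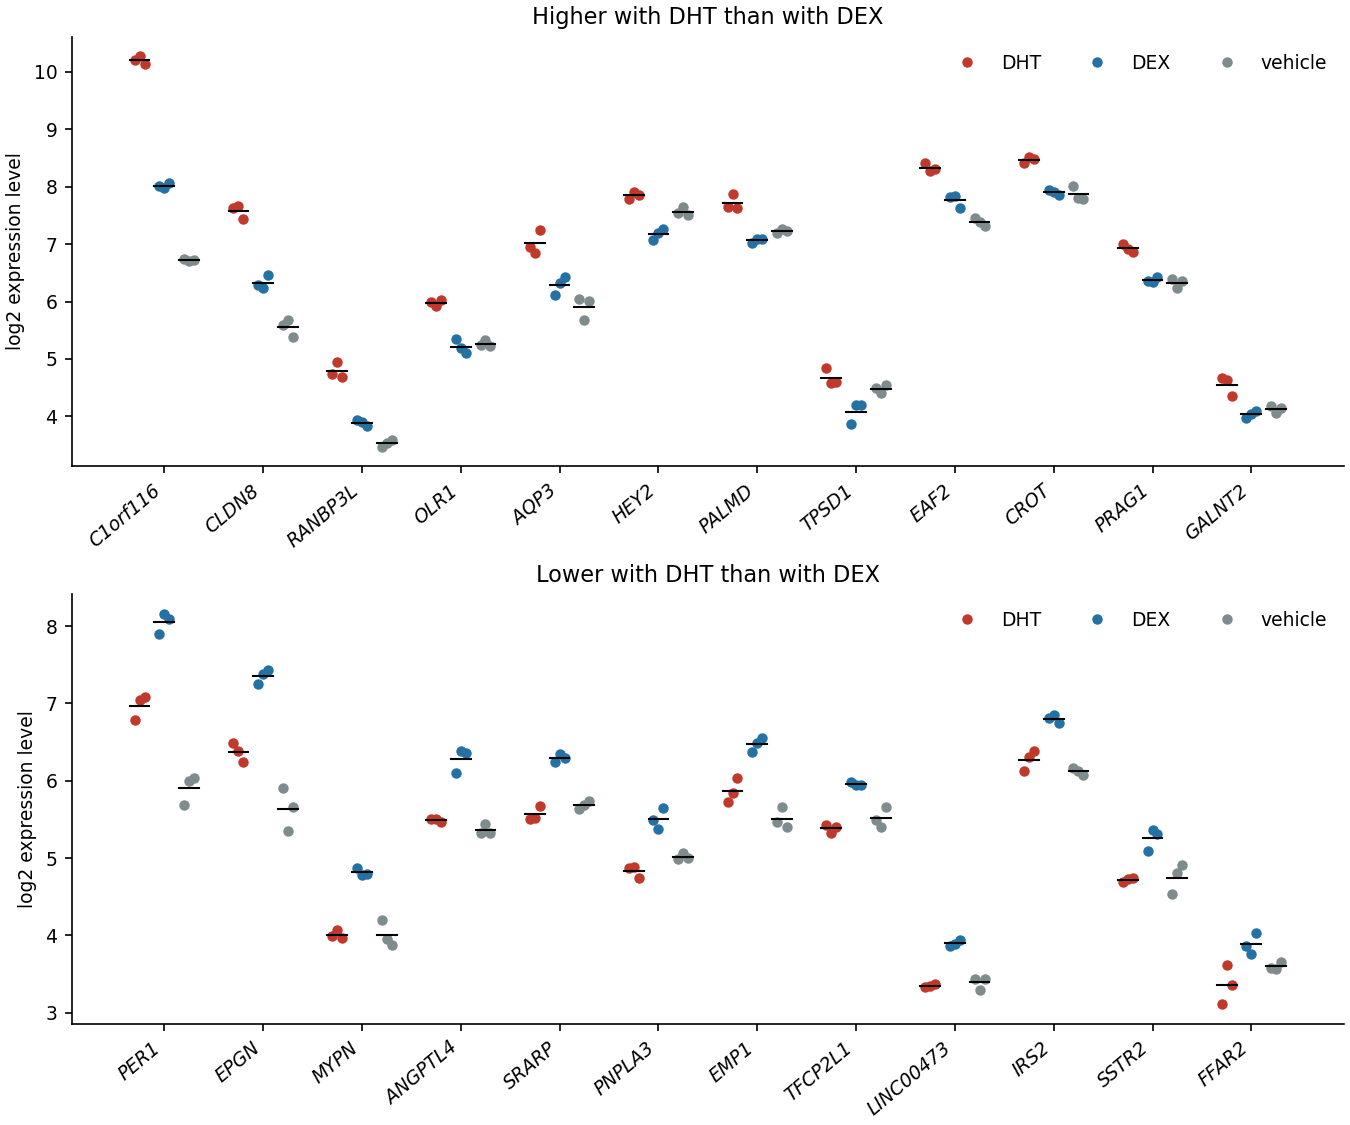
Log2 levels (vertical axis) of the 12 genes with the largest called differences in each direction by the rule for named genes, which passes over small RNAs, 1 point per array and a black line at the mean of 3 arrays. DHT arrays are red, DEX arrays blue and vehicle arrays grey; every red point lies above the blue points in the genes higher with DHT, and under them in the genes lower with DHT.

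*PER1*, a repressor of the circadian clock that glucocorticoids are known to induce, had the largest difference in the other direction. Its levels were 6.78, 7.04 and 7.08 in the DHT arrays, 7.90, 8.16 and 8.09 in the DEX arrays, and 5.69, 6.00 and 6.04 in the vehicle arrays. The DHT arrays lay between the DEX and vehicle arrays with no overlap. DHT was below DEX by 2.12-fold (-1.08 ± 0.10, 95% interval -1.31 to -0.86, adjusted p = 2.05e-04). Against vehicle *PER1* rose by 1.06 ± 0.10 with DHT (adjusted p = 1.07e-04) and by 2.14 ± 0.10 with DEX (adjusted p = 7.54e-08).

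*EPGN* encodes epigen, a ligand of the epidermal growth factor receptor. Its levels were 6.49, 6.38 and 6.24 with DHT, 7.25, 7.38 and 7.43 with DEX, and 5.90, 5.35 and 5.66 with vehicle. The groups kept the order seen for *PER1*, and DHT was below DEX by 1.98-fold (-0.98 ± 0.11, adjusted p = 3.42e-04). *BCL6*, a transcriptional repressor of the BTB zinc finger family, had levels of 8.43, 8.58 and 8.45 with DHT, 8.99, 8.96 and 8.95 with DEX, and 7.92, 7.96 and 7.98 with vehicle (-0.48 ± 0.053, adjusted p = 3.80e-04). *KLF9*, a Kruppel-like transcription factor known as a glucocorticoid target, had levels of 6.12, 6.47 and 6.38 with DHT, 6.90, 6.69 and 6.79 with DEX, and 5.74, 5.65 and 5.70 with vehicle (-0.47 ± 0.092, adjusted p = 0.0312). Both rose against vehicle with either compound, *BCL6* by 0.53 ± 0.053 with DHT and 1.01 ± 0.053 with DEX, and *KLF9* by 0.63 ± 0.092 with DHT and 1.10 ± 0.092 with DEX. The call of *KLF9* between the compounds ended without any 1 of DHT 1, DEX 1 and DEX 3. *EMP1*, an epithelial membrane protein, had levels of 5.73, 5.84 and 6.04 with DHT, 6.37, 6.49 and 6.55 with DEX, and 5.47, 5.66 and 5.40 with vehicle (-0.60 ± 0.089, 1.52-fold lower, adjusted p = 0.00376). Its groups also lay in this order, but against vehicle it was called with DEX (0.96 ± 0.089, adjusted p = 5.80e-05) and not with DHT (0.36 ± 0.089, adjusted p = 0.0811).

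A second set of genes was raised by DEX and stood with DHT near the vehicle level. *MYPN*, which encodes myopalladin, a protein of the muscle sarcomere, had levels of 3.99, 4.07 and 3.97 with DHT, 4.87, 4.78 and 4.79 with DEX, and 4.20, 3.95 and 3.87 with vehicle (-0.80 ± 0.10, 1.75-fold lower with DHT, adjusted p = 9.43e-04). *ANGPTL4*, a secreted inhibitor of lipoprotein lipase, had levels of 5.50, 5.51 and 5.46 with DHT, 6.10, 6.39 and 6.36 with DEX, and 5.33, 5.44 and 5.32 with vehicle (-0.79 ± 0.082, 1.73-fold lower, adjusted p = 2.92e-04). *SRARP*, a steroid receptor associated and regulated protein, had levels of 5.50, 5.52 and 5.67 with DHT, 6.24, 6.35 and 6.29 with DEX, and 5.64, 5.68 and 5.74 with vehicle (-0.73 ± 0.070, 1.66-fold lower, adjusted p = 2.05e-04). In all 3 genes every DEX array was above every DHT and vehicle array. DHT minus vehicle was 0.0033 for *MYPN* (95% interval -0.21 to 0.22), 0.13 for *ANGPTL4* (-0.049 to 0.30) and -0.12 for *SRARP* (-0.27 to 0.026).

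The same arrangement was found for regulators of signalling. *DUSP1*, a phosphatase that switches off MAP kinases, had levels of 7.38, 7.37 and 7.25 with DHT, 7.87, 7.80 and 7.85 with DEX, and 7.31, 7.34 and 7.34 with vehicle (-0.51 ± 0.060, adjusted p = 5.15e-04). *IRS2*, an adaptor of the insulin receptor, had levels of 6.12, 6.30 and 6.38 with DHT, 6.81, 6.85 and 6.75 with DEX, and 6.16, 6.12 and 6.08 with vehicle (-0.54 ± 0.071, adjusted p = 0.00142). The DHT arrays of both genes overlapped the vehicle arrays and lay below the DEX arrays. *TFCP2L1*, a transcription factor of epithelial and stem cells, had a difference of -0.57 ± 0.064 (adjusted p = 3.97e-04), and *SSTR2*, a somatostatin receptor, one of -0.53 ± 0.098 (adjusted p = 0.0215). The call of *SSTR2* ended without any 1 of DHT 1, DHT 2, DEX 2 and DEX 3.

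*PNPLA3*, an enzyme of lipid droplets, and *SOX9*, a transcription factor of epithelial progenitors, had DHT arrays below and DEX arrays above every vehicle array. *PNPLA3* had levels of 4.87, 4.89 and 4.74 with DHT, 5.49, 5.38 and 5.65 with DEX, and 4.99, 5.06 and 5.0 with vehicle (-0.67 ± 0.078, 1.59-fold lower with DHT, adjusted p = 4.75e-04). *SOX9* had levels of 8.21, 8.15 and 8.30 with DHT, 8.76, 8.69 and 8.73 with DEX, and 8.35, 8.45 and 8.47 with vehicle (-0.51 ± 0.053, adjusted p = 2.92e-04). For both genes DEX was called above vehicle (0.49 ± 0.078 and 0.30 ± 0.053), while DHT was not called below it (-0.18 ± 0.078, adjusted p = 0.455, and -0.20 ± 0.053, adjusted p = 0.102). Of the 15 largest lower genes, small RNAs passed over, 3 were dim with DHT. *LINC00473*, a long non-coding RNA known to respond to cyclic AMP, averaged 3.35 with DHT and 3.90 with DEX (-0.55 ± 0.052, adjusted p = 2.05e-04). *CREG2*, which encodes a secreted glycoprotein, averaged 3.65 with DHT and 4.15 with DEX (-0.50 ± 0.092, adjusted p = 0.0215), and *FFAR2*, a receptor for short-chain fatty acids, 3.36 with DHT and 3.88 with DEX (-0.52 ± 0.10, adjusted p = 0.0373). The call of *CREG2* ended without any 1 of DHT 1, DHT 2, DEX 1 and DEX 3, and that of *FFAR2* without any 1 array but DHT 2.

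**Figure D3:**
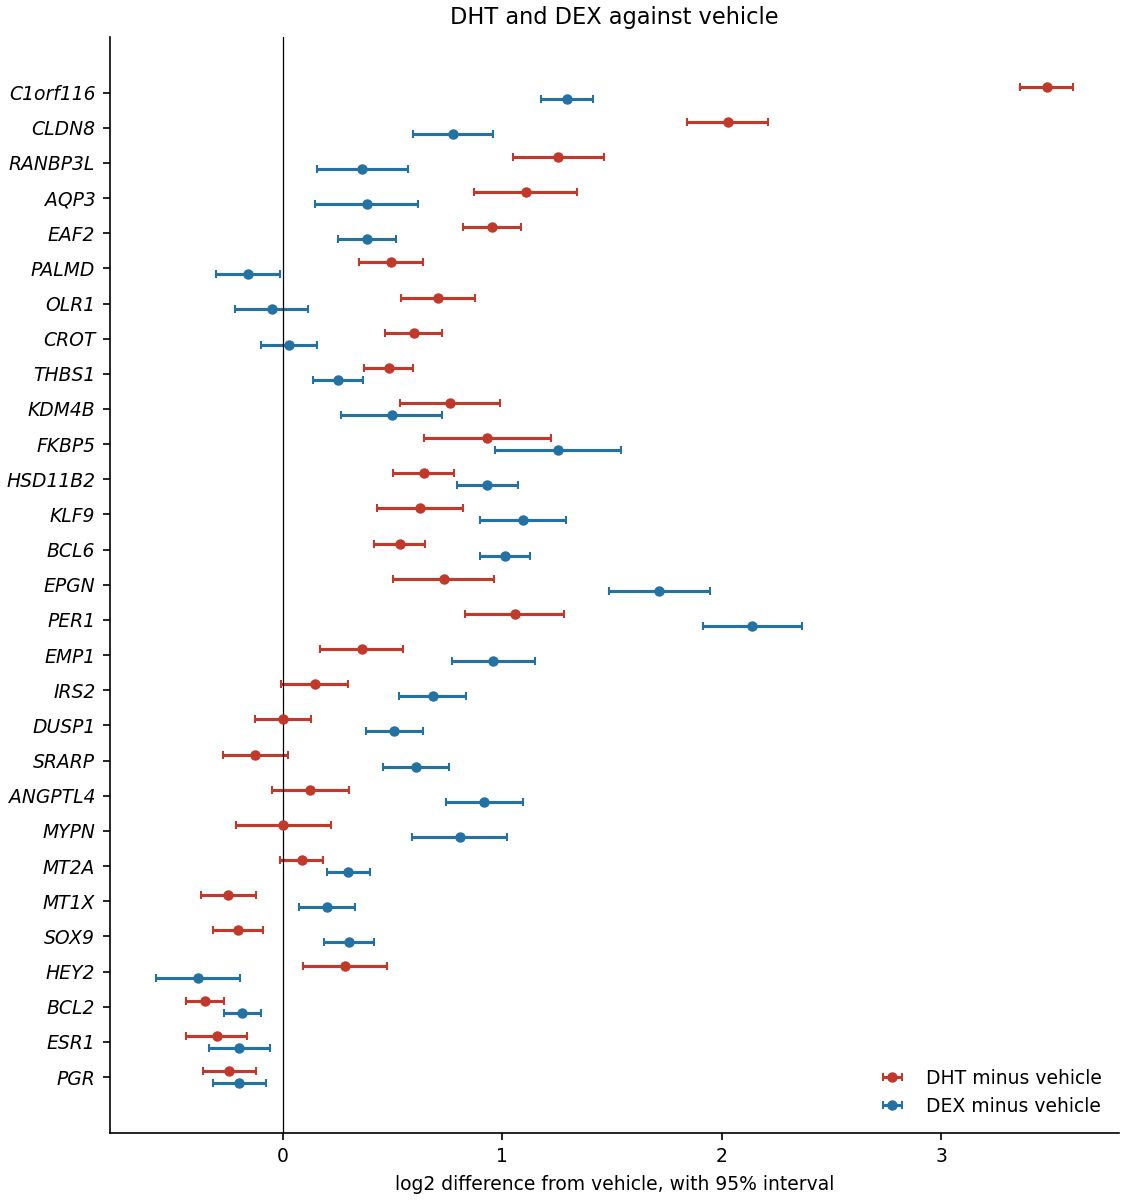
Log2 differences from vehicle (horizontal axis) with 95% intervals for DHT (red) and DEX (blue) in 29 named genes, n = 3 arrays a group. Both rows of a gene share the vehicle arrays; *C1orf116* has the largest DHT value, 3.48, and *PER1* the largest DEX value, 2.14.

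Promoter sequences of 4 of these genes are shown because they carry the largest differences or a motif named here. Windows of 250 bases before to 50 bases after each start, from RefSeq on GRCh38.p14, were held for 74 of the 97 called genes, 27 higher and 47 lower, and for 10661 of the tested genes; *CLDN8* had none. The 250 bases before the start are printed 5′ to 3′ on the gene's strand, with capitals, on either strand, at the receptors' half-site (AGAACA), at the E-box letters (CACGTG) and at the letters of a TATA box (TATAAA).
C1orf116, chr1:207032757-207033006, minus strand: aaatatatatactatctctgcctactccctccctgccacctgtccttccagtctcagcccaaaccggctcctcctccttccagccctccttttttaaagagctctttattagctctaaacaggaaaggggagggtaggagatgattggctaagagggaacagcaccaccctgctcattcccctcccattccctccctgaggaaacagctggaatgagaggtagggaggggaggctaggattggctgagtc
AQP3, chr9:33447594-33447843, minus strand: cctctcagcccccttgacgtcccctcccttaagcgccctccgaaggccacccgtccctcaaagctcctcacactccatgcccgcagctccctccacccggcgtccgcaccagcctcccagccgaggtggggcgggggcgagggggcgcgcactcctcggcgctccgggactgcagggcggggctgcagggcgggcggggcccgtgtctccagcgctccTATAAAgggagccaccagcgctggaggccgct
PER1, chr17:8152405-8152654, minus strand: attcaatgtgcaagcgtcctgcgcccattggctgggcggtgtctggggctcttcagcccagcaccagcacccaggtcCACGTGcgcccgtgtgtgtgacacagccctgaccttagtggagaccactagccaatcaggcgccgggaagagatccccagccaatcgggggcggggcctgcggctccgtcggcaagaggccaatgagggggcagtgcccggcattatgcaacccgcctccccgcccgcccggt
EPGN, chr4:74308220-74308469, plus strand: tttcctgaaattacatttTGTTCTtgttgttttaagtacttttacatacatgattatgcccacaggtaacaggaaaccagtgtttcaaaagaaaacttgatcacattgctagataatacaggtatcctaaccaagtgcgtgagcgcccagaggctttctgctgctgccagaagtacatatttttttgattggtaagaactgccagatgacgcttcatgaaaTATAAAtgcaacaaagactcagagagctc

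The *PER1* window holds CACGTG, the E-box letters that clock proteins bind, with its first base at position -173 from the start. The *EPGN* window holds TGTTCT, the reverse complement of the receptors' half-site AGAACA, at -232, and TATAAA at -29, and the *AQP3* window holds TATAAA at -32. The *C1orf116* window holds none of the 3 motifs. Over all tested genes with a window, searched on both strands, AGAACA was in 14.2%, against 2 of 27 genes higher with DHT and 8 of 47 lower (14.8% of all 35116 windows). CACGTG was in 11.1% of tested genes, 1 of the 27 and 6 of the 47 (7.26% of all windows). TATAAA was in 11.1% of tested genes, 7 of the 27 (25.9%) and 12 of the 47 (25.5%), and in 11.5% of all windows; a match on the other strand reads TTTATA, and the letters of these 3 motifs were counted separately where they overlapped. Of the paired half-sites, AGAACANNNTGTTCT and AGAACANNNAGAACA, neither was in a called gene's window, and they were in 1 and 8 of all windows. These counts describe letters in short windows only.

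The gene lists placed these genes in known groups. They were chosen with earlier results of these arrays known, so their directions are not independent evidence. For every list, the shares over all named probe sets were 0.256% called higher and 0.398% called lower. At an unadjusted p under 0.05 these shares were 3.77% higher and 5.81% lower. Of the 49 androgen-induced genes listed, 29 had a named probe set and 8 of these were dim in every group. Called higher with DHT than with DEX were 5, namely *C1orf116*, *CLDN8*, *EAF2*, *IQGAP2* and *HPGD*, and none was called lower (8 higher and 2 lower at an unadjusted p under 0.05). The median over the 29 was 0.053, against -0.01 over all named probe sets. Against vehicle 7 of the 29 were called higher with DHT and 5 with DEX, beside 0.775% and 0.957% of all named probe sets. *IQGAP2*, a scaffold protein of the cytoskeleton, had levels of 7.28, 7.14 and 7.33 with DHT, 6.96, 6.77 and 6.92 with DEX, and 6.81, 6.78 and 6.92 with vehicle (0.37 ± 0.061, adjusted p = 0.00965), a call that ended without DHT 1. *HPGD*, which degrades prostaglandins, averaged 4.14 with DHT and 3.80 with DEX (0.33 ± 0.066, adjusted p = 0.0334), and this call ended without any 1 of DHT 1, DHT 3, DEX 1 and DEX 2 (adjusted p up to 0.158). Without 1 array 3 to 5 of the 29 were called higher, with 3 without DHT 1 and 4 without DHT 3.

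Androgen-induced genes that were not called between the compounds included some with a response to each. *KDM4B*, a histone demethylase, had levels of 7.42, 7.38 and 7.19 with DHT, 7.02, 7.12 and 7.05 with DEX, and 6.51, 6.85 and 6.34 with vehicle (0.27, 95% interval 0.037 to 0.50, adjusted p = 0.427). It was called against vehicle with DHT (0.76 ± 0.11, adjusted p = 0.00242) and with DEX (0.50 ± 0.11, adjusted p = 0.0401). On both the androgen and the glucocorticoid list is *FKBP5*, which encodes a receptor co-chaperone. It had levels of 5.20, 5.10 and 5.24 with DHT, 5.50, 5.51 and 5.50 with DEX, and 4.48, 4.43 and 3.83 with vehicle. The groups did not overlap, but the difference of -0.32 ± 0.13 was not called (95% interval -0.61 to -0.036, adjusted p = 0.449). The prostate kallikrein gene *KLK3* was dim in all groups. The breast secretory gene *PIP* had a difference of -0.20 ± 0.067 (adjusted p = 0.293), and none of the 13 apocrine and prostate secreted protein genes was called, with 0 higher and 2 lower at an unadjusted p under 0.05. Of the 13 transport genes *CLDN8* and *AQP3* were called higher and none lower, with a median of -0.04.

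Of 50 glucocorticoid-induced genes 30 were measured, and 10 were called lower with DHT than with DEX: *PER1*, *EPGN*, *MYPN*, *ANGPTL4*, *TFCP2L1*, *IRS2*, *DUSP1*, *BCL6*, *KLF9* and *MT1X*. Called higher was 1, the liver enzyme gene *TAT*, at dim levels of 3.44 with DHT and 3.16 with DEX (0.28 ± 0.057, adjusted p = 0.0373), and its call ended without any 1 of DHT 1, DHT 2, DEX 1 and DEX 3. Over all named probe sets 0.398% were called lower and 0.256% higher. At an unadjusted p under 0.05 there were 16 of the 30 lower and 1 higher, beside 5.81% and 3.77% of all. The median was -0.205, against -0.01 over all named probe sets. Against vehicle 6 of the 30 were called higher with DHT and 13 with DEX, beside 0.775% and 0.957% of all named probe sets. *ACSL1*, an acyl-CoA synthetase gene of this list, had levels of 7.67, 7.81 and 7.74 with DHT and 7.72, 7.75 and 7.74 with DEX, and its difference lay between -0.10 and 0.11 (95% interval). *SGK1* and *ZBTB16*, usual glucocorticoid targets, were dim in every group, so a difference between DHT and DEX could be understated. Even so, limma called *SGK1* above vehicle with MPA (0.27 ± 0.064, adjusted p = 0.0210) and with PROG (0.38 ± 0.064, adjusted p = 0.00294). It was not called against vehicle with DEX (-0.033 ± 0.064, adjusted p = 0.908) or with DHT (-0.043 ± 0.064, adjusted p = 0.888).

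**Figure D4:**
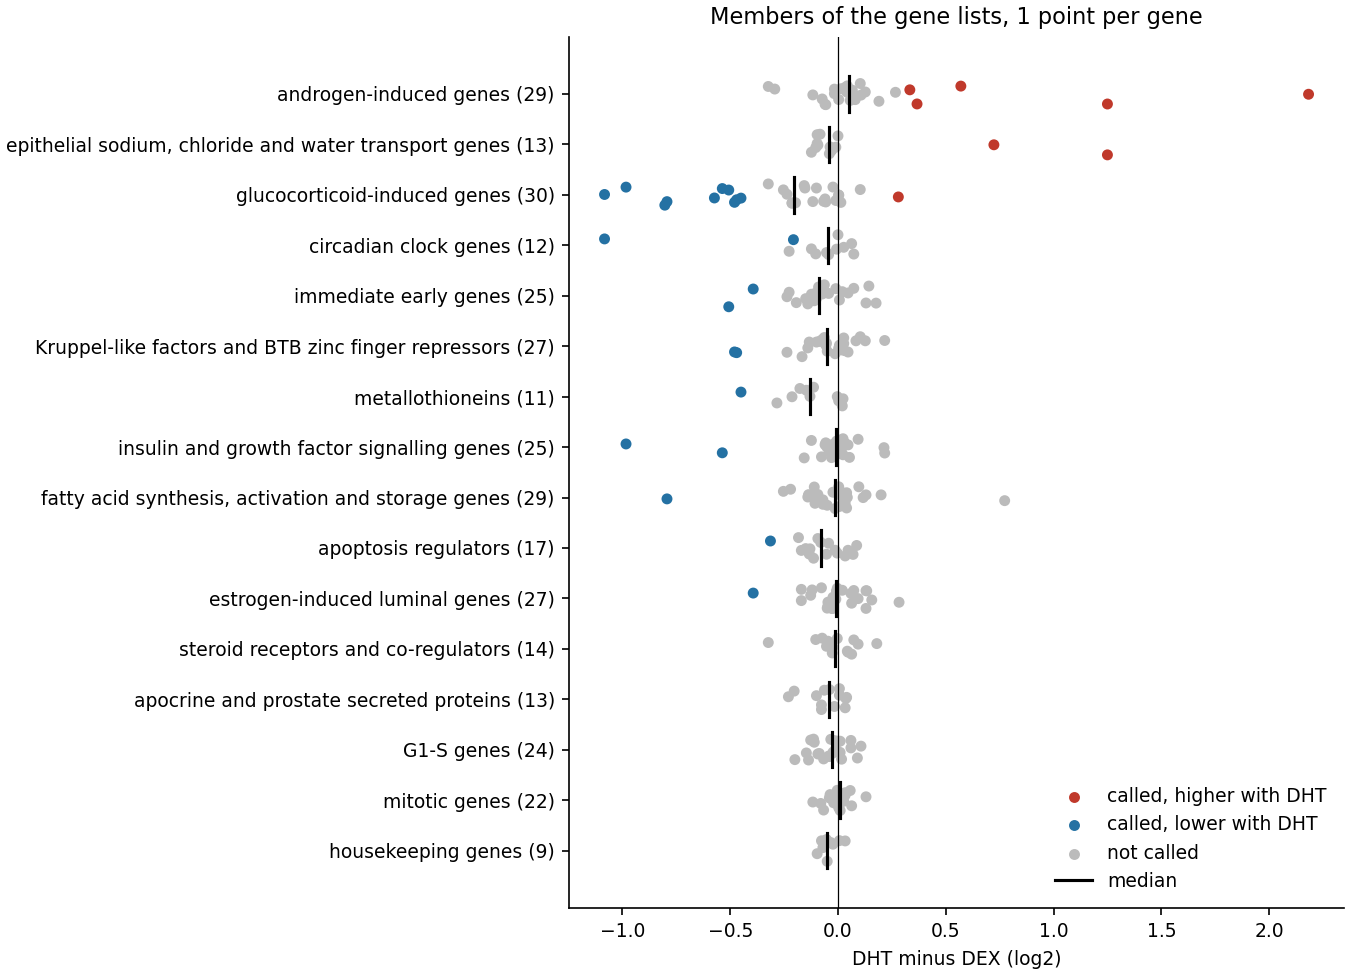
Difference DHT minus DEX (horizontal axis, log2) of each measured member of 16 gene lists, 1 point per gene at its brightest probe set, with the number measured in parentheses. Red points were called higher with DHT, blue points lower, grey points were not called, and black lines are list medians; some genes are on more than 1 list.

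Among the 12 clock genes *PER1* and *CRY2*, both repressors, were called lower with DHT and none higher. *CRY2* had levels of 6.07, 6.13 and 6.04 with DHT, 6.32, 6.27 and 6.27 with DEX, and 5.85, 5.87 and 5.91 with vehicle, so DHT lay between the others. Its difference was -0.21 ± 0.041 (adjusted p = 0.0334), and the call ended without any 1 of DHT 1, DHT 3 and the 3 DEX arrays. *PER2*, another repressor, averaged 7.61 with DHT and 7.84 with DEX and was not called (-0.23 ± 0.064, adjusted p = 0.182).

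Metallothioneins are small proteins that bind zinc and copper. Of the 11 measured, *MT1X* was called lower with DHT and none was called higher, and 5 were dim throughout. *MT1X* had levels of 9.59, 9.60 and 9.65 with DHT, 10.04, 10.03 and 10.12 with DEX, and 9.78, 10.00 and 9.80 with vehicle (-0.45 ± 0.059, adjusted p = 0.00138). The DHT arrays lay below and the DEX arrays above all vehicle arrays, with neither called against vehicle (adjusted p = 0.0733 with DHT and 0.170 with DEX). *MT2A* had levels of 9.25, 9.16 and 9.16 with DHT and 9.41, 9.37 and 9.43 with DEX, a difference of -0.21 ± 0.046 that was not called (adjusted p = 0.0554). These genes are near-identical copies in part, so their probe sets may share signal.

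Of the 25 immediate early genes *DUSP1* and *EGR3* were called lower with DHT and none higher (7 lower and 2 higher at an unadjusted p under 0.05), with a median of -0.09 and 1 to 5 called lower over the alternatives. *EGR3*, an early growth response transcription factor, averaged 4.12 with DHT and 4.51 with DEX (-0.39 ± 0.082, adjusted p = 0.0454) and lost its call without any 1 of DHT 1, DHT 2, DEX 2 and DEX 3. *JUN*, a subunit of AP-1, had levels of 6.58, 6.63 and 6.64 with DHT and 6.65, 6.72 and 6.85 with DEX and was not called (-0.12 ± 0.074, adjusted p = 0.649). Of the 27 Kruppel-like and BTB zinc finger genes *KLF9* and *BCL6* were called lower and none higher. Of the 25 insulin and growth factor genes *EPGN* and *IRS2* were called lower and none higher, and of the 29 fatty acid genes *ANGPTL4* alone was called. In that last group *THRSP*, a regulator of lipid synthesis, had a positive difference that was not called (0.77 ± 0.19, adjusted p = 0.0985). Of the 17 apoptosis regulators *BMF*, a BH3-only activator of cell death, was called lower with DHT. Its levels were 5.13, 5.23 and 5.21 with DHT, 5.49, 5.53 and 5.49 with DEX, and 5.24, 5.26 and 5.34 with vehicle (-0.31 ± 0.055, adjusted p = 0.0150), a call that ended without any 1 of DHT 1, DEX 2 and DEX 3.

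No steroid receptor gene was called between the compounds at this number of arrays. *ESR1*, which encodes estrogen receptor alpha, had levels of 7.72, 7.80 and 7.73 with DHT, 7.81, 7.95 and 7.80 with DEX, and 7.97, 8.16 and 8.02 with vehicle, and its difference lay between -0.24 and 0.036 (95% interval, adjusted p = 0.675). Against vehicle *ESR1* was called lower by limma with DHT (-0.30 ± 0.065, adjusted p = 0.0486) and not with DEX (-0.20 ± 0.065, adjusted p = 0.248). *PGR*, the progesterone receptor gene, had levels of 8.0, 8.06 and 8.10 with DHT and 8.22, 8.06 and 8.02 with DEX, and its difference lay between -0.17 and 0.074. The DHT and DEX arrays of *PGR* overlapped, and the highest DHT array of *ESR1* equalled its lowest DEX array. *BCL2*, an inhibitor of apoptosis that estrogen induces, had levels of 8.59, 8.67 and 8.70 with DHT, 8.82, 8.83 and 8.82 with DEX, and 9.02, 9.04 and 8.96 with vehicle (-0.17 ± 0.039, adjusted p = 0.0769), and it was called lower than vehicle with DHT and with DEX, as were 0.115% and 0.148% of all named probe sets. None of the 14 receptor and co-regulator genes was called by limma, with 1 higher and 1 lower at an unadjusted p under 0.05, and of the 27 estrogen-induced genes *EGR3* alone was called, with 0 to 3 of them called lower and up to 1 higher over the alternatives.

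*HSD11B2*, the enzyme that inactivates cortisol, had levels of 7.87, 7.92 and 7.96 with DHT, 8.17, 8.20 and 8.25 with DEX, and 7.26, 7.38 and 7.18 with vehicle. The 3 groups did not overlap, and both compounds raised it against vehicle (0.64 ± 0.065 with DHT, 0.93 ± 0.065 with DEX), while the difference between them was not called (-0.29 ± 0.065, adjusted p = 0.0662). *THBS1*, a matricellular protein gene, had levels of 8.64, 8.70 and 8.70 with DHT, 8.34, 8.49 and 8.52 with DEX, and 8.21, 8.12 and 8.26 with vehicle (0.23 ± 0.053, adjusted p = 0.0733), and *NDRG1*, a stress-responsive gene, a difference of -0.12 ± 0.17 (adjusted p = 0.891). None of the 14 steroid metabolism, 14 sterol synthesis, 17 NF-kB, 24 G1-S, 22 mitotic, 11 polyamine, 11 unfolded protein response and 9 housekeeping genes was called. At an unadjusted p under 0.05 those lists had 0, 1, 1, 0, 1, 0, 1 and 0 members higher and 2, 1, 2, 5, 0, 1, 2 and 0 lower, while over all named probe sets 559 (3.77%) were higher and 862 (5.81%) were lower. The housekeeping genes differed by -0.097 to 0.033.

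Further called genes were picked after their values were seen, so they are examples only and say nothing about the groups as a whole. *DDIT4*, an inhibitor of mTOR signalling that glucocorticoids induce, averaged 7.29 with DHT, 7.75 with DEX and 7.17 with vehicle (-0.46 ± 0.054, adjusted p = 5.22e-04). *MAOB*, a monoamine oxidase, averaged 7.37 with DHT, 7.81 with DEX and 7.35 with vehicle (-0.44 ± 0.076, adjusted p = 0.0135), and *IL6R*, the interleukin 6 receptor, 7.66 with DHT, 7.97 with DEX and 7.44 with vehicle (-0.31 ± 0.062, adjusted p = 0.0326). The call of *IL6R* ended without any 1 of the 6 arrays (adjusted p up to 0.154), and that of *MAOB* without any 1 of DHT 1, DHT 2, DEX 2 and DEX 3 (up to 0.0823). *PARM1*, which encodes a mucin-like protein, averaged 8.85 with DHT, 8.57 with DEX and 8.39 with vehicle (0.29 ± 0.047, adjusted p = 0.00880). *TARP*, read from the T cell receptor gamma locus in prostate and breast cancer cells, averaged 9.82 with DHT, 9.40 with DEX and 9.32 with vehicle (0.42 ± 0.056, adjusted p = 0.00138). *DSCAM-AS1*, a long non-coding RNA of luminal breast cancer, was among the brightest called genes, at 11.10 with DHT, 10.73 with DEX and 10.96 with vehicle (0.37 ± 0.057, adjusted p = 0.00567).

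The single microRNA gene called was *MIR21*, also named after its value was seen. It averaged 7.90 with DHT, 8.45 with DEX and 7.50 with vehicle (-0.55 ± 0.084, adjusted p = 0.00479). Its main mature product in RefSeq on GRCh38.p14, at chr17:59841273-59841294 on the plus strand, is shown with its seed, bases 2 to 8, in capitals.
hsa-miR-21-5p: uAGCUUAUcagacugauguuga
The labelling kit amplifies total RNA, so the probe set may read the longer transcript of the locus rather than the mature microRNA. *VMP1*, the neighbouring gene whose transcripts can run into that locus, was at 12.09 with DHT and 12.18 with DEX and was not called (-0.087 ± 0.050, adjusted p = 0.635).

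The MPA and PROG arrays do not enter the DHT minus DEX differences, but their spread entered the fit that called the 97 genes, so the counts given here are not independent of that choice and are a description. In a fit of the 9 MPA, PROG and vehicle arrays alone, 18 of the 38 genes higher with DHT than with DEX were called higher with MPA than with vehicle and 4 lower, beside 3.42% and 1.27% of all named probe sets. Of the 59 genes lower with DHT than with DEX, 29 were called higher with MPA and none lower, with a lowest change of -0.24. With PROG the counts were 15 higher and 3 lower of the 38, and 21 higher and 0 lower of the 59, beside 1.80% and 0.229% of all. The median changes were 0.205 and 0.207 with MPA, and 0.102 and 0.147 with PROG, for the 38 and the 59 genes. In the fit of all 15 arrays, MPA had 18 higher and 6 lower of the 38, and 29 higher and 2 lower of the 59, beside 4.11% and 1.82% of all. With PROG that fit had 15 higher and 2 lower of the 38, and 23 higher and 1 lower of the 59, beside 2.43% and 0.391% of all. The genes of the 59 that it called lower were *RNF144B* with MPA (-0.24 ± 0.057, adjusted p = 0.0234) and *CCNG2* with MPA (-0.16 ± 0.040, adjusted p = 0.0308) and PROG (-0.18 ± 0.040, adjusted p = 0.0267).

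Both sets held genes with large changes under progestins, given here from the fit of 9 arrays. On the DHT side, *RANBP3L* rose with MPA by 2.36 ± 0.10 (adjusted p = 1.01e-06), *C1orf116* by 2.35 ± 0.059, *CLDN8* by 2.02 ± 0.078 and *AQP3* by 1.51 ± 0.089. On the DEX side, *EMP1* rose by 1.91 ± 0.081, *PER1* by 1.88 ± 0.097, *MIR21* by 1.49 ± 0.074 and *TFCP2L1* by 1.25 ± 0.074. In that fit the genes that fell with MPA were on the DHT side: *HEY2* (-1.01 ± 0.096, adjusted p = 1.76e-04), *DSCAM-AS1* (-0.34 ± 0.062), *NPNT*, which encodes a matrix protein (-0.33 ± 0.044), and *PPARD*, a nuclear receptor for fatty acids (-0.22 ± 0.049), whose call between DHT and DEX ended without any 1 of DHT 2, DEX 1 and DEX 2. With PROG these were *HEY2* (-0.69 ± 0.096, adjusted p = 0.00432), *TPSD1* (-0.34 ± 0.058) and *NPNT* (-0.23 ± 0.044). *SRARP*, *PNPLA3*, *SOX9* and *PALMD* were called with neither progestin.

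**Figure D5:**
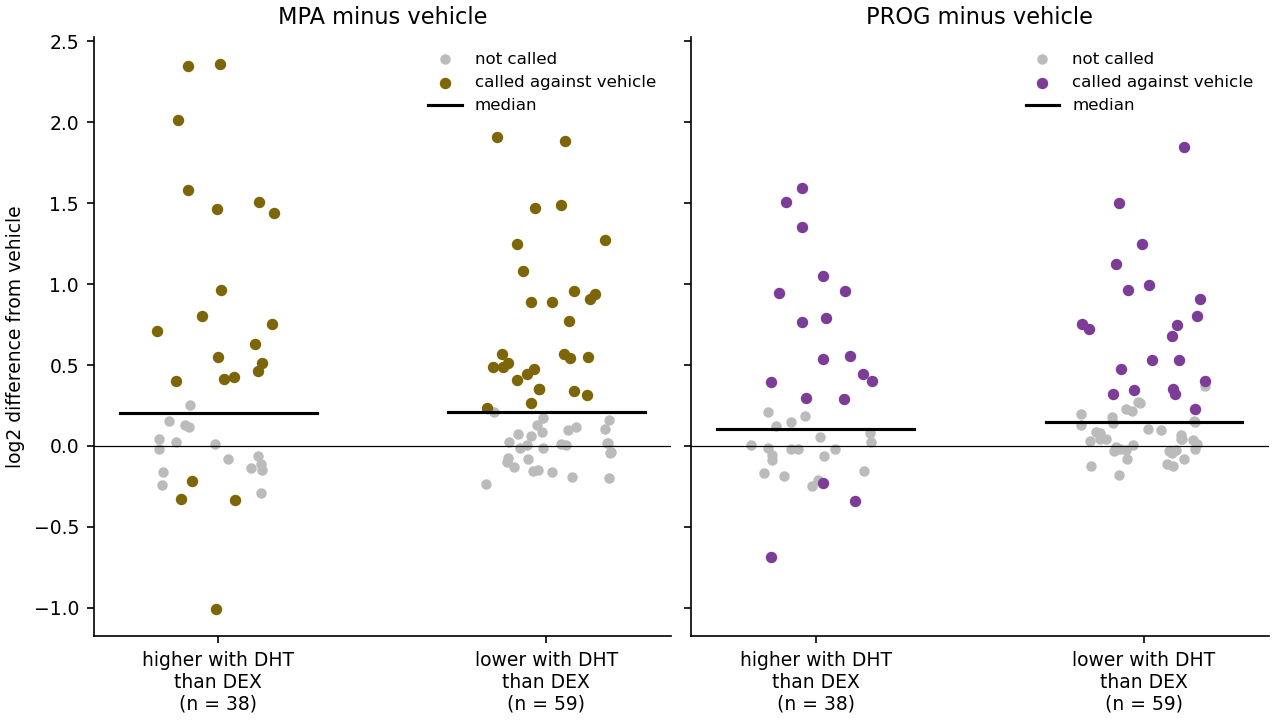
Log2 difference from vehicle (vertical axis) with MPA (left panel) and PROG (right panel), from the fit of the 9 MPA, PROG and vehicle arrays, for the 38 genes higher and the 59 genes lower with DHT than with DEX. Coloured points were called against vehicle, grey points were not, and black lines are medians; in this fit the points called below 0 are in the set higher with DHT, while the fit of all 15 arrays also called *RNF144B* and *CCNG2* below vehicle with MPA, and *CCNG2* with PROG, in the set lower with DHT.

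The mean level with MPA stood between the DHT and DEX means for 18 of the 38 genes and 32 of the 59, and at or above both for 12 and 20. With PROG it stood between them for 24 of the 38 and 41 of the 59. *C1orf116* is an example of a level in between, at 10.20 with DHT, 8.02 with DEX, 9.07 with MPA and 8.32 with PROG. *RANBP3L* is an example of a level above both, at 4.79 with DHT, 3.89 with DEX and 5.89 with MPA, and *OLR1* of one below both, at 5.98 with DHT, 5.22 with DEX and 4.98 with MPA.

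DHT 1 and DHT 2 shared a set of high values that DHT 3 did not have. There were 21 named probe sets more than 0.3 above DHT 3 and all DEX and vehicle arrays in both of them, and none as far below. No matching count was made for other pairs of arrays. *ABHD11*, a mitochondrial hydrolase gene, had levels of 6.39, 6.17 and 4.91 in DHT 1, 2 and 3, and 5.07, 4.98 and 4.93 with DEX (0.83, adjusted p = 0.324). *EAF1*, a relative of *EAF2*, had levels of 6.65, 6.97 and 5.73 with DHT and 5.87, 5.94 and 5.85 with DEX (0.56, adjusted p = 0.365), and *RNF185*, a ubiquitin ligase, 6.41, 6.22 and 5.38 with DHT and 5.17, 4.99 and 5.07 with DEX (0.93, adjusted p = 0.0985). Without DHT 3 each of them was called, with limma adjusted p of 0.00331, 3.75e-04 and 0.00402. They were picked among probe sets called only without DHT 3, so these p-values describe that choice and test nothing. Of the 53 probe sets called only without DHT 3, 17 were at least 1.5-fold higher with DHT and 0 at least 1.5-fold lower. The 17 include several probe sets of *F8A1* with identical values. The part of DHT 3 in the counts over all genes is given by the values with and without it above. The origin of its difference was not tested.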

How the data were processed

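Per the labels' protocols, biotin-labelled cDNA of amplified total RNA was hybridised to Affymetrix arrays. The authors deposited log2 expression values of 34878 probe sets on 15 arrays; the submitters' processing notes name Partek and RMA, without versions or settings. RMA gives arrays a like distribution, which removes a change common to most genes and compresses dim ones. No detection calls were used. The platform annotation pairs 14841 probe sets with 1 symbol (14361 genes, 405 with more than 1 probe set) and leaves 20037 unnamed.

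Values were used as deposited, with no filter. The 5 group means of each probe set were fitted over 15 arrays with limma (lmFit, then eBayes; version 3.58.1, R 4.3.3; 10 residual degrees of freedom, prior 3.81), 2-sided, with Benjamini-Hochberg adjustment over the named probe sets within each contrast and a threshold of 0.05; it was tested on simulated data. Every adjusted p comes from limma, and intervals are its 95% intervals. The number of arrays, 3 a group, limits the precision; the median residual SD of a probe set was 0.0824.

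The genes named are the 15 largest called differences in each direction with groups apart and a higher mean above the median of all values (small RNAs and pseudogenes passed over), the called members of 25 gene lists, and preset single genes, of which 1 further is not reported here; other names are said to be chosen after their values were seen. A list member is given by its brightest probe set. Members and lists were chosen with earlier results of these data known. Same-numbered DHT and DEX arrays did not deviate together (r of 0.014, 0.007 and 0.06), so the numbers were not taken to pair them. Alternatives were the DHT and DEX arrays alone, a replicate block, quantile normalization, median centring, a filter on dim probe sets, all probe sets in the fit, an intensity trend and each array left out. The fit of 9 arrays without DHT and DEX was chosen after seeing the data. Sequences are from RefSeq (GRCh38.p14).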

Additional observations from a re-analysis of the deposited data

Results flagged for a closer look

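In 19 called genes every DHT array and every DEX array lay on opposite sides of all 3 vehicle arrays, in 6 with DHT above and DEX below and in 13 the other way; over all named probe sets this was so in 12 and 25. The difference DHT minus DEX, the test of each, is given on the log2 scale. Against vehicle *PALMD* was called with DHT, *PNPLA3*, *SOX9*, *TPCN1*, *HILPDA* and *IRX6* with DEX, and the others with neither compound. Above vehicle with DHT and below it with DEX were the Notch-induced repressor *HEY2* (0.67), *PALMD* (0.65) and the tryptase gene *TPSD1* (0.5933). So were the non-coding RNA *DSCAM-AS1* (0.3667), the matrix protein gene *NPNT* (0.2833) and *REL* (0.2733), a subunit of NF-kB. *REL* had levels of 9.66, 9.66 and 9.58 with DHT, 9.38, 9.38 and 9.32 with DEX, and 9.57, 9.48 and 9.55 with vehicle.

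Below vehicle with DHT and above it with DEX were the lipid droplet genes *PNPLA3* (-0.6733) and *HILPDA* (-0.3767), the transcription factor genes *SOX9* (-0.5067), *FOXI1* (-0.3567) and *IRX6* (-0.2967), the metallothionein *MT1X* (-0.45), and the ubiquitin ligase *RNF144B* (-0.4433). The others were the calpain *CAPN8* (-0.41), the endosomal channel *TPCN1* (-0.4033), the BH3-only gene *BMF* (-0.3133), *MZT1* (-0.28) of the mitotic spindle, the cyclin-related *CCNG2* (-0.2633) and *FN3KRP* (-0.2533), a kinase that acts on glycated proteins. The call of *MZT1* between DHT and DEX ended without any 1 array but DHT 3 (adjusted p up to 0.197), that of *FN3KRP* without any 1 of DHT 2, DEX 2 and DEX 3 (up to 0.0834), that of *BMF* without any 1 of DHT 1, DEX 2 and DEX 3 (up to 0.0952), and that of *FOXI1* without either of DHT 2 and DEX 3 (up to 0.0658). *TPCN1* had levels of 8.0, 8.07 and 8.07 with DHT, 8.40, 8.49 and 8.46 with DEX, and 8.13, 8.11 and 8.13 with vehicle, groups that are close but do not overlap.

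Among the probe sets without a gene symbol, with all probe sets adjusted together, 57 (0.284% of 20037) were called between DHT and DEX, 21 higher and 36 lower. They are not named here.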

How the results depend on the processing

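None of the 39 called genes of the rule changed direction under these alternatives, and none of the 97 did without 1 array. Of the 97 calls, 20 of the 38 higher and 28 of the 59 lower held without any 1 array, and 13 and 21 held under every alternative that gives a value, *C1orf116*, *CLDN8*, *PER1* and *EPGN* among them. Main counts of called, higher and lower probe sets were 97, 38 and 59, and 15 of at least 1.5-fold. With the DHT and DEX arrays alone, which leaves fewer samples, they were 39, 16 and 23 (37 of the 39 shared), with 13 of at least 1.5-fold. With an intensity trend they were 166, 63 and 103, and with a filter on dim probe sets 143, 54 and 89. With the replicate block they were 71, 28 and 43, with 15 of at least 1.5-fold, a block on numbers that are not shown to pair the arrays. Quantile normalization gave 101, 46 and 55, median centring 92, 37 and 55, and all probe sets in the fit 72, 32 and 40. Leaving out 1 array gave 62 to 135 called, 26 to 67 higher, 33 to 68 lower, and 15 to 35 of at least 1.5-fold, with the lowest total without DHT 1 and the highest of each count without DHT 3. The lower count was 33 without DHT 1, 38 without DHT 2 and 35 without DEX 3. Of the 39 named genes that were called, 24 held in every alternative and 11 lost the call without at least 1 array. Of the 15 named genes that were not called, *THBS1*, *BCL2*, *MT2A* and *HSD11B2* were called under some alternative. Androgen-induced genes called higher numbered 3 to 5 and glucocorticoid-induced genes called lower 9 to 12, with 0 or 1 higher. Members called lower numbered 0 to 3 of the estrogen-induced, 1 to 5 of the immediate early, 1 to 3 of the Kruppel-like and BTB, 1 or 2 of the clock, 1 or 2 of the metallothionein and 0 to 2 of the apoptosis genes. Without DEX 3, 1 fatty acid gene was called higher, and without DHT 3, 1 unfolded protein response gene was called lower. Across all the alternatives, fatty acid genes called higher numbered 0 or 1, and unfolded protein response genes called lower 0 to 2. Luminal markers and steroid metabolism genes called lower each numbered 0 or 1. Low signal limits what dim genes can show.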
